A study of Homo sapiens with 12 samples.

Results

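The Frizzled receptors and Wnt ligands described here were 9 genes (FZD2, FZD6, FZD7, FZD8, LRP5, LRP6, WNT5A, WNT5B and DKK1), found by their symbols in an expression table of 24331 features, and all 9 were present. Messenger RNA was sequenced from MDA-MB-231 cells, a mesenchymal human breast cancer cell line, in 12 libraries. Wild-type (WT) cells were compared with cells labelled KO (CRE deleted), written ΔCRE here, in which the NFAT and NF-κB sites of a core regulatory element of the ETS1 gene had been removed by CRISPR/Cas9. Both genotypes were collected without stimulation (0 h) and after 6 or 24 h with PMA, a phorbol ester that activates protein kinase C, together with Ionomycin, which lets calcium into the cell, and each of the 6 conditions had 2 biological replicates. How many clones the ΔCRE cells represent is not given in the sources used here, so the deletion and any difference between clones cannot be told apart. Levels are FPKM, in which the fragments of a gene are divided by its transcript length and by the library's mapped reads, and this permits levels of different genes to be set side by side. Differences are given on the log2(FPKM + 1) scale with their standard errors (SE) and limma p-values adjusted over all 11256 features with a mean of at least 1 FPKM, a group that held all 9 genes. A gene was called at an adjusted p under 0.05.

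The ΔCRE 0 h replicate 1 library stood apart and is shown separately throughout. Its FPKM values summed to 1423335 against 566255 to 651080 in the other 11, and its correlation with each of them was 0.853 to 0.89, against 0.978 to 0.984 between replicates. In it, 11 gut epithelium markers summed to 11200 FPKM against 1.28 to 2.85 FPKM in the other 11 libraries, where 10 of the 11 markers were below 1 FPKM throughout. Of those 11 markers, 4 (PHGR1, REG1A, GPX2 and LCN2) had been picked from these libraries. The other 11 libraries carried the markers of the labelled cell line, with all 6 mesenchymal markers (VIM, CD44, AXL, MSN, LGALS1 and S100A4) at or above 1 FPKM in each. Of 7 luminal breast markers, ESR1, PGR and CDH1 were below 1 FPKM in each, and GATA3, KRT18 and EPCAM were at or above it in each (list sum 352.4 to 555.0 FPKM). ΔCRE 0 h thus has 1 library in the tests, which was assumed to vary like the rest, except where all 12 libraries are named.

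Wnt proteins are secreted ligands that bind Frizzled receptors, which cross the membrane and carry a cysteine-rich extracellular domain. Together with the co-receptor LRP5 or LRP6, a Frizzled receptor passes the signal to Dishevelled and stabilizes β-catenin, which then acts in the nucleus with TCF/LEF factors. WNT5A and WNT5B are best known for signalling that does not depend on β-catenin, through Frizzled receptors and ROR or RYK, and this branch bears on cell shape and movement. DKK1 is secreted, binds LRP5 and LRP6, and blocks the β-catenin branch.

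FZD8 and DKK1 had the largest differences between the genotypes among the 9, and their promoters are shown for that reason. Both lie on chromosome 10. The RefSeq window of 250 bases before to 50 bases after the start on GRCh38.p14, a different build from that of the expression table, is chr10:35642247-35642546 on the minus strand for FZD8 and chr10:52314031-52314330 on the plus strand for DKK1. Capitals mark a TCF/LEF match and an ETS match in DKK1.
FZD8: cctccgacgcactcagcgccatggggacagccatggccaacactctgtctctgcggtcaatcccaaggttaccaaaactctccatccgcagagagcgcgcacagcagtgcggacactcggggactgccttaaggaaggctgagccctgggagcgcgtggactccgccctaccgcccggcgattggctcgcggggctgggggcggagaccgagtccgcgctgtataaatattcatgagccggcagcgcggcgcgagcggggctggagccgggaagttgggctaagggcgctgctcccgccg
DKK1: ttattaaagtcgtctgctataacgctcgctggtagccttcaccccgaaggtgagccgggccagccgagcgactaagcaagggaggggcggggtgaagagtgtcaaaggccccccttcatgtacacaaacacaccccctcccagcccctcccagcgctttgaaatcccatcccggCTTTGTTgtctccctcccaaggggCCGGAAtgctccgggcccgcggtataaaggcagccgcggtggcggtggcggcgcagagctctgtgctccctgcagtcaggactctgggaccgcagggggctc
The windows were searched on both strands for 4 motifs: the ETS core CCGGAA, the AP-1 site TGANTCA, the TCF/LEF site CTTTGNT and the NFAT core GGAAA. In the DKK1 window, CTTTGTT began 76 bases and CCGGAA 52 bases before the start, and neither AP-1 nor NFAT letters occurred. No match to any of the 4 was present in the FZD8 window. Of 34943 promoters of this length, 17.2% held the ETS letters, 7.72% the AP-1 letters, 15.4% the TCF/LEF letters and 61.2% the NFAT letters. GC content was 67.0% in the FZD8 window and 63.7% in the DKK1 window, against a median of 58.7%. Promoter entries were matched for 5 of the 9 genes (FZD8, DKK1, LRP5, WNT5A and WNT5B). A match is a run of letters and not evidence of binding.

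ETS1, the transcription factor whose regulatory element was deleted, was examined first as a check of the labels. Without stimulation the WT libraries held 24.0 and 23.7 FPKM, those of 6 h 139.2 and 145.2, and those of 24 h 36.2 and 39.7. The ΔCRE libraries gave 16.5 FPKM at 0 h, 62.8 and 62.2 at 6 h, and 29.3 and 30.7 at 24 h, with 5.08 in the library shown apart. At 0 h ETS1 in ΔCRE cells was thus 69.2% of the WT mean. It was 43.9% at 6 h, then 79.0% at 24 h, and each ΔCRE value was below the WT pair of its time.

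FZD8 was the member that rose furthest with stimulation, and the only one of the 9 called lower in ΔCRE cells at all 3 times. It is a single-exon gene on the minus strand of chromosome 10 (hg19, chr10:35927177-35930362) that encodes a Frizzled receptor. In WT cells its level was 2.45 and 2.36 FPKM at 0 h, 4.28 and 3.66 at 6 h, and 8.95 and 8.68 at 24 h. No libraries of different times overlapped, and the WT mean reached 1.65 times its starting level at 6 h and 3.67 times at 24 h. In ΔCRE cells FZD8 was at 1.24 FPKM at 0 h, 1.56 and 1.37 at 6 h, and 2.88 and 2.80 at 24 h, with 0.982 in the library shown apart. Each ΔCRE library lay under the WT pair of its time, and the 24 h ΔCRE libraries lay between the WT levels of 0 and 6 h.

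As a share of the WT mean, FZD8 in ΔCRE cells was 51.7% before stimulation, then 36.9% at 6 h and 32.2% at 24 h. The differences were −0.60 (SE 0.10, adjusted p = 0.0307) at 0 h, −1.01 (SE 0.084, adjusted p = 3.1e-04) at 6 h and −1.35 (SE 0.084, adjusted p = 1.1e-04) at 24 h. In bulk libraries, fewer cells that express a gene and less of its RNA in each cell cannot be told apart. FZD8 is labelled on the study's heatmap of genes it selected as differential in these libraries, so its difference between the genotypes is not independent evidence of a direction. The difference at 24 h was 0.34 further down than at 6 h, but this widening did not pass the test (interaction −0.34, 95% interval −0.62 to −0.07, adjusted p = 0.606). The added 1 FPKM makes differences between such low levels smaller than their ratios. With 0.1 FPKM added instead, the differences were −0.90, −1.38 and −1.6 at 0, 6 and 24 h. The widening was then −0.22 (limma interaction, adjusted p = 0.878). With 1 FPKM added and 1 library left out in turn, the 6 h difference stayed between −1.10 and −0.92 and the 24 h difference between −1.37 and −1.33, and both calls were kept each time. The 0 h call was lost (adjusted p = 0.0587 to 0.0903) without either WT 0 h library, either WT 24 h library or either ΔCRE 24 h library.

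The rise of FZD8 was itself called in both genotypes. In WT cells it rose by 0.54 (SE 0.084, adjusted p = 0.0011) from 0 to 6 h and by 0.98 (SE 0.084, adjusted p = 5.6e-05) from 6 to 24 h, and over the whole course by 1.53 (SE 0.084, adjusted p = 2.9e-06). ΔCRE cells showed a rise of 0.64 (SE 0.084, adjusted p = 4.2e-04) from 6 to 24 h, a ratio of 1.94 against 2.22 in WT cells. ETS1 in WT cells was highest at 6 h, whereas FZD8 was highest at 24 h. On the reverse strand FZD8 overlaps the annotated transcript ENSG00000287528, and it also contains MIR4683. Whether strand was used in counting is not given in the sources used here, so reads of the gene and of its antisense partner may be mixed.

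Genes near FZD8 differed less. Among 16 tested features that start within 5 Mb of it, the median ΔCRE against WT difference was −0.12 at 0 h, 0.02 at 6 h and 0.08 at 24 h, and 0 of the 16 were lower than FZD8 at any of the times. The differences, called or not, were above 0 for 2, 9 and 9 of the 16 at 0, 6 and 24 h. Of these neighbours 0 were called at 6 h, where 9.83% of all tested features were called. At 24 h 1 was called, higher, where 2.35% of all tested features were called higher. The 5 features whose levels followed FZD8 most closely over the 11 libraries, by Pearson's r of log2(FPKM + 1), were MINK1 (0.971), ZBTB4 (0.966), RHPN1 (0.964), RALGDS (0.96) and SGSM2 (0.958). RHPN1 was at 2.91 and 2.78 FPKM in WT cells at 0 h and at 8.12 and 9.38 at 24 h, against 4.98 and 4.41 in ΔCRE cells at 24 h. These libraries share their conditions, and such correlations only describe a common pattern. Among the members themselves, none followed FZD8 in the same direction as closely, and the strongest relations of FZD8 were inverse, with FZD6 (r = −0.773) and DKK1 (r = −0.767) over the same 11 libraries.

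Of the remaining Frizzled receptors, FZD2 fell at 6 h and then partly recovered. It is a single-exon gene (hg19, chr17:42634812-42638630). In WT cells FZD2 was at 8.37 and 8.78 FPKM at 0 h, 3.16 and 2.96 at 6 h, and 6.33 and 6.42 at 24 h. In ΔCRE cells it was at 9.22 FPKM at 0 h, 3.93 and 4.13 at 6 h, and 5.95 and 5.34 at 24 h, with 8.16 in the library shown apart. The 3 times did not overlap in either genotype. WT cells at 6 h held 35.7% of the 0 h mean, a fall of 1.24 (SE 0.071, adjusted p = 3.9e-06), and FZD2 rose again by 0.86 (adjusted p = 4.5e-05) from 6 to 24 h, ending at 74.3% of the 0 h mean (−0.38, adjusted p = 0.0023). The rise from 6 to 24 h in ΔCRE cells was 0.40 (adjusted p = 0.0019).

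FZD2 was 1.32 times the WT mean in ΔCRE cells at 6 h (0.31, SE 0.071, adjusted p = 0.0297) and 0.885 times at 24 h (−0.15, 95% interval −0.31 to 0.01, adjusted p = 0.264). Both ΔCRE libraries were above both WT libraries at 6 h and below them at 24 h. The change between the times did not pass the test (interaction −0.46, 95% interval −0.69 to −0.23, adjusted p = 0.247). The 6 h call was lost (adjusted p = 0.0571 to 0.159) without any single library of the 4 at 6 h or either WT library at 24 h, and it was at the threshold and not called without the filter on low levels (adjusted p = 0.05).

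FZD7, another single-exon receptor gene (hg19, chr2:202899310-202903160), fell with stimulation and was still below its 0 h level at 24 h. WT libraries gave 9.37 and 9.30 FPKM at 0 h, 4.56 and 4.86 at 6 h, and 5.43 and 5.44 at 24 h. ΔCRE libraries gave 8.47 FPKM at 0 h, 5.73 and 6.12 at 6 h, and 4.86 and 4.70 at 24 h, with 4.58 in the library shown apart. Both later times were well below 0 h in either genotype. The WT differences from 0 h were −0.86 (SE 0.063, adjusted p = 1.7e-05) at 6 h and −0.68 (SE 0.063, adjusted p = 4.7e-05) at 24 h. From 6 to 24 h FZD7 fell in ΔCRE cells (−0.26, adjusted p = 0.0090), while the WT difference was 0.17 (95% interval 0.03 to 0.32, adjusted p = 0.0514).

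Against WT, FZD7 was 1.26 times as high in ΔCRE cells at 6 h (0.28, SE 0.063, adjusted p = 0.0288) and 0.879 times as high at 24 h (−0.16, 95% interval −0.30 to −0.01, adjusted p = 0.202). As for FZD2, both ΔCRE libraries lay above the WT pair at 6 h and below it at 24 h, and the interaction did not pass (−0.43, 95% interval −0.64 to −0.23, adjusted p = 0.194). The FZD7 call at 6 h was lost (adjusted p = 0.0508 to 0.18) without any single library of the 4 at 6 h, either WT library at 24 h or ΔCRE 24 h replicate 1. Its ΔCRE fall from 6 to 24 h was lost (adjusted p = 0.0512 to 0.0526) without replicate 2 of either time, and the WT difference was called (adjusted p = 0.0496) without ΔCRE 6 h replicate 1.

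FZD6 was the most abundant Frizzled member in WT cells before stimulation and declined over the whole course. WT libraries held 16.2 and 16.9 FPKM at 0 h, 11.8 and 12.3 at 6 h, and 9.62 and 10.0 at 24 h. ΔCRE libraries held 17.7 FPKM at 0 h, 14.7 and 13.9 at 6 h, and 10.1 and 11.2 at 24 h, with 3.96 in the library shown apart. Each time was below the one before in both genotypes. FZD6 fell by 0.43 (adjusted p = 0.0011) by 6 h and by 0.70 (adjusted p = 5.4e-05) by 24 h in WT cells, and the 6 to 24 h step was called in WT (−0.27, adjusted p = 0.0099) and in ΔCRE cells (−0.40, adjusted p = 0.0014). Without WT 6 h replicate 2 or WT 24 h replicate 1 the WT step was lost (adjusted p = 0.064 and 0.066). FZD6 was not called between the genotypes at 6 h (0.23, 95% interval 0.08 to 0.38, adjusted p = 0.0688) or at 24 h (0.10, 95% interval −0.05 to 0.25, adjusted p = 0.429). Among 22 tested features that start within 5 Mb of FZD6, the median difference was 0.14 at 6 h and 0.18 at 24 h. The differences, called or not, were above 0 for 11, 20 and 21 of the 22 at 0, 6 and 24 h. At 6 h 1 was called higher (3.62% of all tested features) and at 24 h 3 were (2.35%), with 0 called lower. What part the neighbourhood has in the FZD6 values was not tested.

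The receptors therefore changed places during stimulation. At 0 h in WT cells FZD8 was the lowest of the 4 Frizzled members, at 2.41 FPKM ± 0.0630 (SD, n = 2), below FZD2 at 8.58 ± 0.287, FZD7 at 9.34 ± 0.0492 and FZD6 at 16.6 ± 0.524. By 24 h in WT cells FZD8 had reached 8.82 ± 0.188, above FZD2 at 6.38 ± 0.0641 and FZD7 at 5.44 ± 0.0046 and below FZD6 at 9.81 ± 0.274, and none of these neighbours overlapped in their libraries. In ΔCRE cells at 24 h FZD8 at 2.84 ± 0.0588 remained below FZD7 at 4.78 ± 0.109, FZD2 at 5.64 ± 0.432 and FZD6 at 10.6 ± 0.767.

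**Figure D1:**
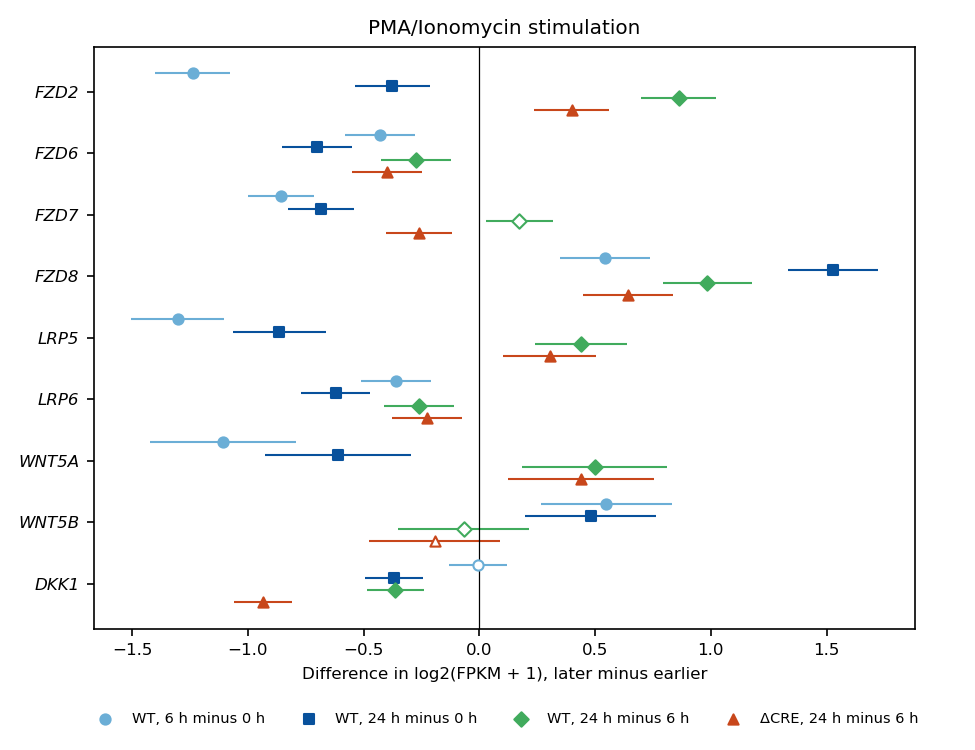
Differences with stimulation for the 9 genes. The x axis is the later minus the earlier mean of log2(FPKM + 1), bars are 95% intervals of the limma fit and filled symbols are called, for WT 6 h minus 0 h (light blue circles), WT 24 h minus 0 h (dark blue squares), WT 24 h minus 6 h (green diamonds) and ΔCRE 24 h minus 6 h (orange triangles). FZD8 lies to the right of 0 in all 4, from 0.54 to 1.53, and FZD6 and LRP6 to the left in all 4.

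Both co-receptors fell with stimulation. LRP5 (hg19, chr11:68080108-68216743, 23 exons) gave 37.1 and 34.1 FPKM in the WT libraries of 0 h, 14.8 and 12.9 at 6 h, and 19.9 and 18.3 at 24 h. In ΔCRE cells it was at 31.2 FPKM at 0 h, 12.2 and 10.7 at 6 h, and 14.5 and 14.1 at 24 h, with 15.8 in the library shown apart. Every stimulated library was far below every unstimulated one of the 11. The WT fall was −1.30 (SE 0.088, adjusted p = 9.8e-06) at 6 h, to 38.9% of the 0 h mean, followed by a rise of 0.44 (adjusted p = 0.0039) from 6 to 24 h, which left LRP5 at 53.7% (−0.86, adjusted p = 8.0e-05). The rise from 6 to 24 h in ΔCRE cells was 0.30 (adjusted p = 0.0198), and this call was lost (adjusted p = 0.0569 to 0.127) without ΔCRE 6 h replicate 2 or either ΔCRE 24 h library.

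LRP5 was lower in ΔCRE cells at 24 h, at 74.8% of the WT mean (−0.39, SE 0.088, adjusted p = 0.0360), and all of its ΔCRE libraries were below their WT counterparts at the 3 times. The values at 6 h (82.4%, −0.26, 95% interval −0.46 to −0.06, adjusted p = 0.112) and at 0 h (87.6%, −0.18, adjusted p = 0.489) were not called. Leaving out any 1 of the 4 libraries at 24 h ended the 24 h call (adjusted p = 0.0953 to 0.229), as did testing without the filter on low levels (adjusted p = 0.0641). The median over 149 tested features within 5 Mb of LRP5 was −0.0045 at 24 h.

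LRP6 (hg19, chr12:12268961-12419811, 23 exons) was less abundant and fell steadily. WT libraries gave 6.84 and 7.21 FPKM at 0 h, 5.26 and 5.24 at 6 h, and 4.10 and 4.33 at 24 h. ΔCRE libraries gave 6.68 FPKM at 0 h, 5.26 and 5.69 at 6 h, and 4.52 and 4.54 at 24 h, with 2.10 in the library shown apart. The WT falls were −0.36 (adjusted p = 0.0026) by 6 h and −0.62 (adjusted p = 1.0e-04) by 24 h, and the 6 to 24 h step was −0.26 (adjusted p = 0.0117) in WT and −0.23 (adjusted p = 0.0206) in ΔCRE cells. The WT step was lost (adjusted p = 0.0535 to 0.0762) without either WT 6 h library or WT 24 h replicate 1, and the ΔCRE step (adjusted p = 0.0717 to 0.104) without ΔCRE 6 h replicate 2 or either ΔCRE 24 h library. LRP6 was not called between the genotypes, with 95% intervals of −0.10 to 0.20 at 6 h and −0.07 to 0.24 at 24 h. Over the 11 libraries LRP6 followed FZD6 (r = 0.955), a description of their common decline.

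The 2 ligands moved in opposite directions. WNT5A (hg19, chr3:55499743-55521670) was a low-level gene. Its WT libraries gave 2.08 and 2.73 FPKM at 0 h, 0.541 and 0.599 at 6 h, and 1.12 and 1.32 at 24 h. In ΔCRE cells it was at 2.06 FPKM at 0 h, 0.195 and 0.453 at 6 h, and 0.890 and 0.686 at 24 h, with 0.687 in the library shown apart. All 6 h libraries were below all 24 h libraries, and those below all unstimulated ones among the 11. The WT mean fell to 23.7% at 6 h (−1.11, SE 0.14, adjusted p = 3.3e-04) and stood at 50.8% at 24 h (−0.61, adjusted p = 0.0057). The added 1 FPKM makes these differences smaller than the ratios of such low levels. From 6 to 24 h WNT5A rose by 0.50 (adjusted p = 0.0176) in WT and 0.44 (adjusted p = 0.0280) in ΔCRE cells. These rises were lost without either WT 6 h library or WT 24 h replicate 2 (adjusted p = 0.0533 to 0.0869), and without replicate 1 of ΔCRE 6 h or 24 h (adjusted p = 0.136 to 0.142). After quantile normalization the ΔCRE rise was 0.21 and was not called (adjusted p = 0.293).

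WNT5B (hg19, chr12:1726222-1756378) rose in WT cells, from 7.75 and 5.78 FPKM at 0 h to 11.2 and 9.43 at 6 h and 9.73 and 9.76 at 24 h. ΔCRE cells gave 7.19 FPKM at 0 h, 10.8 and 9.55 at 6 h, and 8.84 and 8.67 at 24 h, and the library shown apart 10.2. The 0 h replicates were further apart than those of the stimulated times. The WT rises were 0.55 (SE 0.12, adjusted p = 0.0072) at 6 h and 0.48 (SE 0.12, adjusted p = 0.0106) at 24 h, and they were lost without WT 6 h replicate 1 (adjusted p = 0.0622) and without WT 0 h replicate 2 (adjusted p = 0.0638). From 6 to 24 h neither genotype was called, with −0.07 (adjusted p = 0.682) in WT and −0.19 (adjusted p = 0.228) in ΔCRE cells. Neither ligand was called between the genotypes at any time. The 95% intervals at 6 h were −0.57 to 0.06 for WNT5A and −0.30 to 0.27 for WNT5B, and at 24 h −0.63 to 0.003 and −0.42 to 0.14.

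DKK1, the secreted inhibitor, was the most abundant of the 9 genes and was higher in ΔCRE cells after stimulation. It has 4 exons (hg19, chr10:54074041-54077417). In WT cells DKK1 was at 42.3 and 44.5 FPKM at 0 h, 42.2 and 44.2 at 6 h, and 34.3 and 32.5 at 24 h. In ΔCRE cells it was at 48.4 FPKM at 0 h, 84.0 and 81.0 at 6 h, and 42.6 and 42.8 at 24 h, with 20.8 in the library shown apart. WT levels at 0 and 6 h overlapped, whereas both ΔCRE libraries at 6 h were far above every other library. ΔCRE cells held 1.12 times the WT mean at 0 h, 1.91 times at 6 h and 1.28 times at 24 h.

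The DKK1 difference between the genotypes was 0.92 (SE 0.055, adjusted p = 5.7e-05) at 6 h and 0.35 (SE 0.055, adjusted p = 0.0091) at 24 h, and was not called at 0 h (0.15, 95% interval 0.002 to 0.31, adjusted p = 0.328). DKK1 was the only member whose genotype difference changed between 6 and 24 h by the test of that change (interaction −0.57, SE 0.077, adjusted p = 0.0469). In WT cells the 6 h level was −0.01 from the 0 h level (95% interval −0.13 to 0.12, adjusted p = 0.951), and DKK1 then fell by 0.36 (adjusted p = 9.4e-04) to a 24 h level −0.37 from 0 h (adjusted p = 6.4e-04). In ΔCRE cells it fell by 0.93 (adjusted p = 7.4e-06) from 6 to 24 h. The 6 h call was kept with each library left out, but the 24 h call was lost (adjusted p = 0.0541 to 0.0758) without WT 24 h replicate 2 or either ΔCRE 24 h library. The interaction call was lost in 10 of the 11 such fits (adjusted p = 0.0755 to 0.214), and also without the filter on low levels (0.053), in TPM (0.0706) and after quantile normalization (0.0747).

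Some genes around DKK1 were also called higher in ΔCRE cells. The 11 tested features that start within 5 Mb had a median difference of 0.26 before stimulation. After 6 h it was 0.19, with 4 called higher, where 3.62% of all tested features were, and after 24 h 0.27, with 5 called higher, where 2.35% were. Of these neighbours 0 were called lower at 6 or 24 h, where 6.22% and 3.97% of all tested features were called lower. The differences, called or not, were above 0 for 7, 9 and 10 of the 11 at 0, 6 and 24 h. At 0 h 6 of the 11 exceeded DKK1, at 6 h 0 did, and at 24 h 5 did. What part the neighbourhood has in the DKK1 difference was not tested. DKK1 also overlaps PRKG1-AS1 on the other strand. In the same way FZD6 overlaps BAALC-AS1 and ENSG00000286337, and LRP6 overlaps BCL2L14, RPL21P100, RNU6-545P and ENSG00000270857. As for FZD8, reads of both strands may be mixed for these genes.

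**Figure D2:**
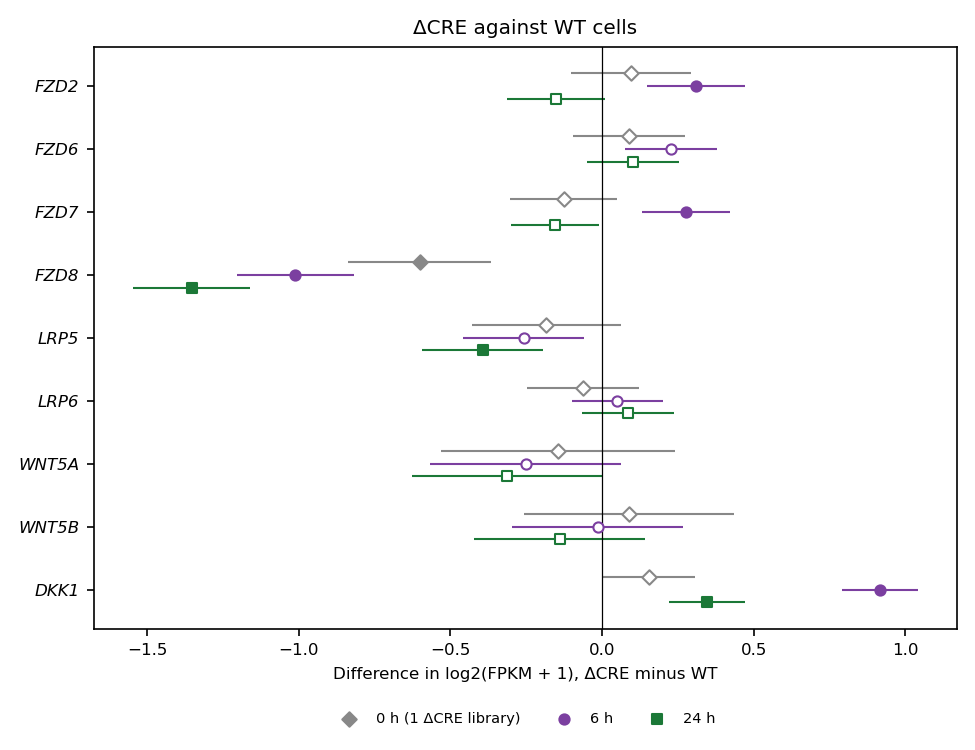
Differences between ΔCRE and WT cells for the 9 genes. The x axis is the ΔCRE minus the WT mean of log2(FPKM + 1), bars are 95% intervals of the limma fit and filled symbols are called, for 0 h (grey diamonds, 1 ΔCRE library), 6 h (purple circles) and 24 h (green squares). FZD8 lies furthest to the left at each time, down to −1.35, and DKK1 furthest to the right at 6 and 24 h, up to 0.92.

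Read against the whole table, calls with stimulation were common and calls between genotypes were not. From 0 to 6 h in WT cells 8 of the 9 genes were called, 2 higher and 6 lower, where 44.4% of all tested features were called (23.3% higher and 21.1% lower). From 0 to 24 h it was 9 of 9, 2 higher and 7 lower, against 54.6% (26.5% higher and 28.2% lower). These comparisons share the WT 0 h libraries. From 6 to 24 h 7 were called in WT cells, 4 higher and 3 lower, against 46.8% (20.5% and 26.3%), and 8 in ΔCRE cells, 4 higher and 4 lower, against 49.6% (22.1% and 27.5%).

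Between the genotypes 4 members were called at 6 h (FZD2, FZD7 and DKK1 higher, FZD8 lower), where 9.83% of features were called (3.62% higher and 6.22% lower). At 24 h 3 were called (DKK1 higher, FZD8 and LRP5 lower) against 6.33% (2.35% higher and 3.97% lower). At 0 h FZD8 alone was called, lower, against 1.69% called and 1.03% called lower. The interaction called 0.16% of features, 0.0178% with a lower value at 24 h, and DKK1 was among the latter. The median difference of the 9 members was −0.43 from 0 to 6 h and −0.61 from 0 to 24 h in WT cells, against −0.0014 and −0.02 over all tested features, and it was 0.05 at 6 h and −0.15 at 24 h between the genotypes, against 0.013 and 0.012.

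Counts over the table depend on how libraries are scaled to each other. After conversion to TPM (FPKM rescaled so that each library has the same sum), the median feature from 0 to 6 h in WT cells moved from −0.0014 to −0.12, and the split from 2620 higher and 2373 lower to 1894 and 3513. From 6 to 24 h the split moved from 2303 higher and 2964 lower to 3208 and 1780 in WT cells, and from 2489 and 3097 to 3219 and 2082 in ΔCRE cells. At 24 h between the genotypes it moved from 265 and 447 to 180 and 548. No called member changed direction with TPM. The WT steps of FZD6 and LRP6 from 6 to 24 h, the ΔCRE steps of FZD7 and LRP6 and the 6 h genotype difference of FZD7 were no longer called, and the WT step of FZD7 became a called rise. Including ΔCRE 0 h replicate 1 widened the spread, and 5 members (FZD2, FZD7, FZD8, LRP5 and WNT5A) were then called from 0 to 6 h, 1 (FZD8) from 0 to 24 h, 2 (FZD2 and FZD8) from 6 to 24 h in WT cells and 1 (FZD8) in each of the ΔCRE 24 h against 6 h, 6 h genotype and 24 h genotype comparisons, with 0 called at 0 h or for the interaction.

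The rest of the pathway showed how much of it these cells express. Of 84 other Wnt pathway genes, 42 reached a mean of 1 FPKM. Of 17 other Wnt ligands only WNT3 (2.86), WNT7B (6.77) and WNT10B (1.56) did so, and of the other Frizzled receptors FZD1 (3.62), FZD4 (1.62) and FZD5 (1.73), these being means over the 11 libraries. ROR2, a WNT5A receptor in other cells, had a mean of 0.0014 FPKM, against 3.79 for ROR1 and 18.4 for RYK. AXIN2, a widely used target of β-catenin, had a mean of 0.653 FPKM and was not tested. From 0 to 6 h in WT cells 9 of the 42 rose and 19 fell, and from 0 to 24 h 9 rose and 18 fell, with medians of −0.15 and −0.14. Over all tested features 23.3% rose and 21.1% fell to 6 h, and 26.5% rose and 28.2% fell to 24 h. From 6 to 24 h 11 rose and 11 fell in WT cells, and 12 rose and 11 fell in ΔCRE cells, against 20.5% and 26.3%, and 22.1% and 27.5%, over all tested features.

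The receptor ROR1 fell from 7.73 and 8.31 FPKM at 0 h in WT cells to 3.41 and 2.90 at 6 h (−1.12, adjusted p = 2.2e-04), and stood at 0.862 and 1.06 at 24 h. LGR4, the receptor for R-spondins, fell by 1.61 (adjusted p = 1.3e-05) at 6 h. Of the 7 tested planar cell polarity genes, which organize cells within a sheet, 6 fell and 0 rose from 0 to 6 h, among them PRICKLE1 (−1.85), CELSR2 (−0.77) and PRICKLE2 (−0.65). Of the 11 cytoplasmic transducers 5 rose and 2 fell, with AXIN1, a scaffold of the β-catenin destruction complex, up by 0.73 and CTNNBIP1, an inhibitor of β-catenin, at −0.74. Over all tested features 23.3% were called higher and 21.1% lower in this comparison. WNT7B rose by 1.01 (adjusted p = 3.4e-05) at 6 h, and between 6 and 24 h it fell back by 1.32. The 4 tested β-catenin feedback targets split, with TCF7 (0.79) and LEF1 (0.31) up and SP5 (−0.54) and ZNRF3 (−0.42) down. WLS, which carries Wnt proteins to the cell surface, rose by 0.83 from 0 to 24 h.

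Between the genotypes 3 of the 42 other pathway genes were called at 6 h and 1 at 24 h, where 9.83% and 6.33% of all tested features were called. At 6 h limma called 0 of the 42 higher in ΔCRE cells (5 at an unadjusted p under 0.05) and 3 lower, namely FZD1 (−0.45, adjusted p = 0.0278), the Dishevelled gene DVL2 (−0.26, adjusted p = 0.0207) and the β-catenin cofactor BCL9L (−0.36, adjusted p = 0.0266). At 24 h 0 were called higher (4 at an unadjusted p under 0.05) and DVL2 was lower (−0.44, adjusted p = 0.0031). For the interaction limma called 0 of the 42, and the unadjusted p was under 0.05 for 3 (2 higher and 1 lower). Over all 11256 tested features the unadjusted p was under 0.05 for 2703 at 6 h, 2387 at 24 h and 786 for the interaction. At 0 h, with 1 ΔCRE library, the median difference of the 42 was 0.013, against 0.0057 over all tested features. Of the tested β-catenin feedback targets, limma called 0 of 4 between the genotypes at 6 or 24 h, with medians of 0.20 and 0.0034 and an unadjusted p under 0.05 for 2 and 0 of them.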

How the data were processed

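RNA from MDA-MB-231 cells was made into stranded mRNA libraries (TruSeq) and sequenced on an Illumina NextSeq instrument. Per the study's methods and processing notes, the authors mapped the reads with TopHat (hg19) and obtained expression estimates from Cufflinks, and FastQC, cutadapt, Bowtie and Cuffdiff are also named. The deposited values are FPKM, 1 column per library, and the annotation, the use of strand and any scaling between libraries are not given in the sources used here. FPKM holds no read counts, so sequencing depth is unknown and no counting interval is given. In 2 column names a digit 1 stands where the others have the letter H, and these were matched to ΔCRE 0 h and 6 h replicate 2.

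From the deposited values, log2(FPKM + 1) was fitted over 11 libraries with limma 3.58.1 in R 4.3.3 (group means, variance trend, Benjamini-Hochberg adjustment), for features with a mean of at least 1 FPKM. The fit was also run on simulated data with independent noise and planted shifts, which checks how it was coded and not the calls made here. The tests covered 4 time comparisons, 3 genotype comparisons and their interaction, and named genes were the 9 members, ETS1, up to 3 called genes per pathway list and comparison, and the 5 genes most like FZD8. Neighbours were tested features starting within 5 Mb. The members and lists were chosen with earlier results of these data known. The p-values measure only the spread between replicates, shared over the groups and drawn toward that of features of similar level. ΔCRE 0 h, with 1 library in the fit, adds nothing to this spread. Same-numbered WT and ΔCRE replicates of the same time deviated with correlations of 0.0999 at 6 h and 0.107 at 24 h. At 0 h the correlation was 0.111, which uses the library shown apart. Same-numbered replicates of different times gave −0.0676 to 0.202, with that library included, so numbers were not taken as pairs. Alternatives were a pseudocount of 0.1, no filter, TPM, quantile normalization, a replicate block, all 12 libraries and each library left out. The authors' own comparisons and their p-values were not used.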

Additional observations from a re-analysis of the deposited data

Results flagged for a closer look

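FZD2 and FZD7 drew attention because their genotype differences pointed in opposite directions at 6 and 24 h with no overlap of libraries at either time. The tested change between the times was −0.46 for FZD2 (adjusted p = 0.247) and −0.43 for FZD7 (adjusted p = 0.194), so neither passed. FZD7 also had differences of opposite sign from 6 to 24 h in WT and ΔCRE cells, again without overlap, which is the same interaction.

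The DKK1 genotype difference was 0.57 smaller at 24 h than at 6 h (−0.57, adjusted p = 0.0469), a call lost in 10 of the 11 fits that left out 1 library. WNT5B stood at 10.2 FPKM in ΔCRE 0 h replicate 1, which entered no fit but that of all 12 libraries, above both WT 0 h libraries (7.75 and 5.78) and above the other ΔCRE 0 h library (7.19). That library is also the one with the gut epithelium markers, and their part in this value was not tested. The FPKM values of that library summed to 1423335, against 566255 to 651080 in the other 11. The WNT5B levels given here were not rescaled for this, so they cannot be compared directly.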

How the results depend on the processing

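With all 12 libraries, the members called were 5 (WT 6 h against 0 h), 1 (WT 24 h against 0 h), 2 (WT 24 h against 6 h), 1 (ΔCRE 24 h against 6 h), 1 and 1 (ΔCRE against WT at 6 and 24 h), 0 (at 0 h) and 0 (interaction), where the 11 libraries gave 8, 9, 7, 8, 4, 3, 1 and 1. All features called were then 903, 1285, 636, 911, 32, 19, 17 and 0, in place of 4993, 6151, 5267, 5586, 1107, 712, 190 and 18, and the unadjusted p was under 0.05 for 1612 features at 0 h and 85 for the interaction. The added library gives ΔCRE 0 h 2 libraries that differ widely, and limma shares that spread among groups. The interaction called 0 members without the filter, with TPM and after quantile normalization, and 11 features after the last. A replicate block raised the features called between the genotypes to 1805 (6 h), 1407 (24 h) and 655 (0 h), and added FZD6 (adjusted p = 0.0361) and LRP5 (adjusted p = 0.0134) at 6 h and FZD7 in WT 24 h against 6 h (adjusted p = 0.0386). The sample titles give only a replicate number, and the numbers were not taken as pairs, so this block is given only here. Whether same-numbered libraries share an effect was not tested further. With 1 library left out, members called ranged over 4 to 8 (WT 24 h against 6 h), 5 to 8 (ΔCRE 24 h against 6 h), 2 to 4 (genotypes at 6 h), 1 to 3 (24 h), 0 to 1 (0 h) and 0 to 1 (interaction), and features called between the genotypes over 325 to 1108 (6 h), 165 to 710 (24 h), 106 to 156 (0 h) and 3 to 21 (interaction). Signs turned only in differences that were not called: in fits leaving out 1 library, DKK1 in WT 6 h against 0 h (−0.0419 to 0.0319), WNT5B in WT 24 h against 6 h (−0.178 to 0.0431, and 0.0415 with TPM), WNT5B between the genotypes at 6 h (−0.125 to 0.0961) and 0 h (−0.0947 to 0.274), and the interactions of LRP6 (−0.0121 to 0.0832) and WNT5A (−0.201 to 0.0808, and 0.152 with a pseudocount of 0.1). With quantile normalization WNT5A between the genotypes at 6 h was 0.0403, and with all 12 libraries FZD6 and DKK1 at 0 h were −0.87 and −0.44. The causes were not tested. FPKM without counts leaves unknown how deeply WNT5A, at under 1 FPKM in 6 of the 11 libraries, was sampled.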
